A study of Mus musculus with 78 samples.

Results

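The genes described here code for the nuclear-encoded subunits of the mitochondrial respiratory chain in mouse liver, measured on 78 arrays of 18 sample groups. Members were taken by symbol: names beginning with Nduf or Uqcr, the Cox4 to Cox8 genes, and Sdha to Sdhd. Of the 19938 genes with a symbol of their own on the array, 72 met that rule. They comprise 34 subunits of complex I, 4 of complex II, 8 of complex III and 19 counted with complex IV, and 7 Ndufaf genes, which code for complex I assembly factors and not for subunits. The 65 genes that remain without the Ndufaf genes are called subunits below. Where a gene had several probe sets, the one with the highest mean over all arrays was used, and a level is a log2 value of that probe set. The rule used no measured response of any group. Cox7c and Ndufb4 were left out because their probe sets carry several symbols.

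The respiratory chain sits in the inner mitochondrial membrane. Complex I takes electrons from NADH and complex II, which is also the succinate dehydrogenase of the citrate cycle, takes them from succinate. Complex III passes them to cytochrome c, and complex IV hands them to oxygen; complexes I, III and IV pump protons that drive ATP synthesis. Most subunits are coded in the nucleus and imported, a few in mitochondrial DNA, and hepatocytes are rich in mitochondria.

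The study asked how the liver transcriptome changes in Niemann-Pick type C disease, in which loss of the cholesterol transporter NPC1 traps unesterified cholesterol and sphingolipids in late endosomes and lysosomes. The age series held female BALB/cNctr-Npc1m1N/J littermates from crosses of heterozygotes, Npc1+/+ or Npc1-/- in all cells, killed at 1, 3, 5, 7, 9 or 11 weeks with 4 mice in each of 12 groups; the labels call the mutants pre-symptomatic at 1 and 3 weeks. The 12-week set held female Balb/cJ mice with a normal Npc1 gene, 5 in each of 6 groups. They were untreated, fasted overnight, treated with a control antisense oligo during the 4 weeks before, treated likewise with an Npc1 antisense oligo, or given either oligo together with the antioxidant N-acetyl-cysteine (NAC). Every array is whole liver of 1 mouse. The sets differ in strain source, age and, for some livers, preservation, so a level in one set cannot be told apart from these when it is set against the other.

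The Npc1 probe set averaged 10.3 ± 0.25 (SD, n = 4) in Npc1+/+ and 8.71 ± 0.25 in Npc1-/- mice at 11 weeks, and 10.2 ± 0.14 (SD, n = 5) in control oligo mice against 7.25 ± 0.22 in Npc1 oligo mice. Mice given the control oligo and NAC stood at 9.19 ± 0.46, each of them below every mouse given the control oligo alone. Albumin stood between 13.1 and 13.8 on every array; it is the main protein hepatocytes secrete. Some arrays stood apart. Mouse 3 of the 1-week Npc1-/- group carried skeletal muscle transcripts, with Acta1 at 11.2 and Ckm at 9.87. Mice 1 and 2 of the 3-week Npc1+/+ group carried pancreatic transcripts, with Cpb1 at 8.94 and 8.83. Mouse 3 of the Npc1 oligo and NAC group was lower in the macrophage markers Gpnmb and Cd68 than the rest of its group. Gpnmb stood at 6.32 there against 9.61 to 9.78, and Cd68 at 8.48 against 9.62 to 10.02. Mice 3 and 4 of the 1-week Npc1+/+ group have original names numbered apart from those of mice 1 and 2. Several results that rest on these mice are given with and without them. The counts from 1 to 3 weeks in Npc1+/+ mice are not given without the mice with pancreatic transcripts. No count is given separately without the mouse with muscle transcripts, and the counts averaged over ages are given with all mice. Precision is limited by the number of mice, and in bulk liver fewer cells of a type and less RNA per cell cannot be told apart.

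Of the 65 subunits, 59 were above 5.54, the median of all values, on every array. The other 6 are isoforms or relatives of complex IV subunits known from other tissues: Cox4i2, Cox6b2, Cox7b2, Cox8b, Cox8c and Ndufa4l2. Cox7b2 stayed between 3.09 and 3.69 over all arrays and Ndufa4l2, a hypoxia-inducible relative of Ndufa4, between 4.27 and 5.29. A gene was tested when its level passed 5.54 on at least 4 arrays of a set. By that filter 62 subunits and 6 assembly factors entered the age series; Cox7b2, Cox8b, Ndufa4l2 and Ndufaf5 did not. In the 12-week set 62 subunits and all 7 assembly factors were tested.

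The sequences just upstream of 4 members are shown because the results below turn on these genes, and because they differ in 2 motifs known from promoters of this gene class. In each line the 250 bases before an annotated start are given 5′ to 3′ on the coding strand, with motif matches in capitals. They are from RefSeq on build GRCm38.p6. The Ndufaf1 window reaches into the annotated span of its gene, which ends at base 119662839. The motifs searched, on both strands, were the core bound by NRF1, spelled GCGCA, any 1 base, GCGC, and CCGGAAG, a core bound by ETS factors such as GABP. The promoter of Ndufs5 (complex I, chr4:123718187-123718436, minus strand) holds 1 NRF1 match, that of Uqcr11 (complex III, chr10:80406822-80407071, minus strand) and that of Ndufaf1 (assembly factor, chr2:119662835-119663084, minus strand) hold 1 ETS match each, and that of Cox7a1 (complex IV, chr7:30183921-30184170, plus strand) holds neither.
Ndufs5: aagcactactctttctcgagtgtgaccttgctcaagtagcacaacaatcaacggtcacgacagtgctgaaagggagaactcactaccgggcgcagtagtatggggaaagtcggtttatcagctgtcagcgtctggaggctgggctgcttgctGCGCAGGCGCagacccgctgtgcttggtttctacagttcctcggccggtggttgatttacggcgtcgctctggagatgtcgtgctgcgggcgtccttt
Uqcr11: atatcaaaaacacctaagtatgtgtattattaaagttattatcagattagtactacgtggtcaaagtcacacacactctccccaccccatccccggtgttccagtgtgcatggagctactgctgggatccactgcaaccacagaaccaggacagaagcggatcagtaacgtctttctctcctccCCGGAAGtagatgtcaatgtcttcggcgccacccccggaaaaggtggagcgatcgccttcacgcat
Ndufaf1: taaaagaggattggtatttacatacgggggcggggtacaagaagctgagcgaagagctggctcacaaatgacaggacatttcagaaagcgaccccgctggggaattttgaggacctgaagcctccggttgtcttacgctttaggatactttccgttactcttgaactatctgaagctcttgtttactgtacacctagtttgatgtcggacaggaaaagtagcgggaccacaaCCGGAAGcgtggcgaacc
Cox7a1: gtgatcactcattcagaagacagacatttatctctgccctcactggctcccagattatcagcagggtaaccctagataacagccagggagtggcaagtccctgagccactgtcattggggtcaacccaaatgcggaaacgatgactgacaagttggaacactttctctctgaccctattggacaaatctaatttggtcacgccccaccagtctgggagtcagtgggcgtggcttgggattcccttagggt

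RefSeq listed promoters for 58 members, 60 promoters in all. The NRF1 motif was present in 10 of them (16.7%), against 1228 of 32851 promoters of all genes (3.74%), and the ETS motif in 9 (15.0%), against 2269 (6.91%). By complex, NRF1 matches were found in 6 of 33 promoters of complex I, 2 of 3 of complex II (Sdha and Sdhd), none of 5 of complex III and 1 of 13 of complex IV (Cox6a1). A match is a description of these letters and no evidence of binding. The Cox7a1 sequence is also poorer in CpG than the others, with 4 such dinucleotides against 18 for Ndufs5, 11 for Uqcr11 and 13 for Ndufaf1. The median over the members' promoters was 14, and over all promoters 6.

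In Npc1-/- liver, the means of complexes I, II and III ran below Npc1+/+ from 7 weeks on. In complex IV most tested genes did not pass as lower. Its 16 tested members include isoforms of other tissues with low levels, which enter its counts and its mean. These are Cox8c, Cox4i2, Cox6a2, Cox6b2 and Cox7a1, with means of 5.47 to 6.36 over all arrays. The mean over the 34 complex I subunits was 9.29 ± 0.10 (SD, n = 4) in Npc1+/+ and 8.97 ± 0.03 in Npc1-/- mice at 7 weeks, 9.43 ± 0.04 and 9.09 ± 0.01 at 9 weeks, and 9.43 ± 0.05 and 9.05 ± 0.09 at 11 weeks. At each of these 3 ages the mice of the 2 genotypes did not overlap. For complex III the 11-week means were 10.2 ± 0.05 and 9.91 ± 0.10, for complex II 10.6 ± 0.08 and 10.3 ± 0.13, and for the 16 tested members of complex IV 8.97 ± 0.05 and 8.89 ± 0.07, the last with overlapping mice. At 1 week complex I stood at 9.06 ± 0.12 in Npc1+/+ and 9.21 ± 0.07 in Npc1-/- mice, and the mice overlapped. The Npc1+/+ mice were at 9.14, 9.18, 8.97 and 8.94 and the Npc1-/- mice between 9.13 and 9.27. The median complex I difference of 0.15 at that age was 0.03 without Npc1+/+ mice 3 and 4.

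**Figure D1:**
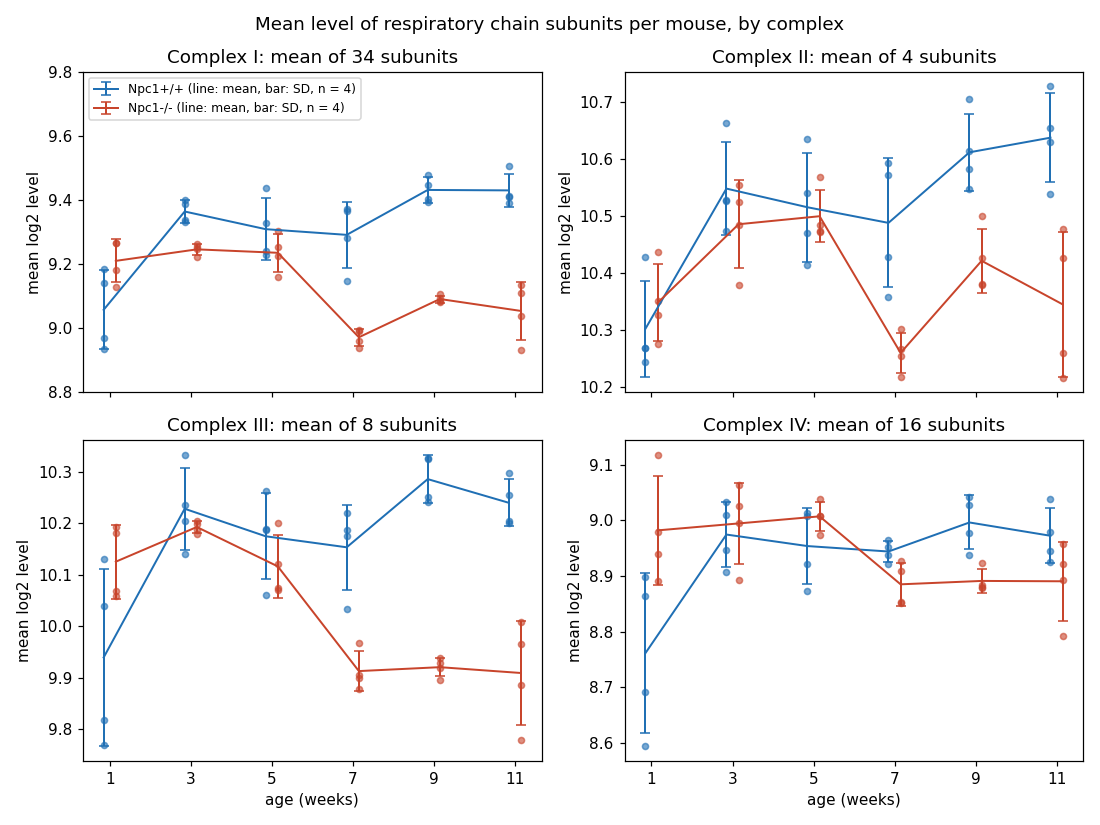
Mean log2 level of the tested subunits of each complex (y axis) in each mouse against age in weeks (x axis), Npc1+/+ in blue and Npc1-/- in red, with group mean and SD (n = 4). Complex I separates from 7 weeks on, while the complex IV means at 11 weeks are 8.97 and 8.89. The complex IV means take in isoforms of other tissues with low levels.

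Gene by gene, limma was run over all 12638 genes tested, with a Benjamini-Hochberg adjusted p under 0.05. More subunits were lower from 7 weeks on than at 1 to 5 weeks. None of the 62 subunits was lower at 1 week, where 2.78% of all genes were lower, and 3 were at 3 weeks (background 6.84%). At 5 weeks none was (background 2.88%), and 7 of 62 had an unadjusted p under 0.05 in either direction. Then 34 were lower at 7 weeks, against 11% of all genes, 32 at 9 weeks, against 15.5%, and 41 at 11 weeks, against 20.5%. Higher subunits numbered 12 at 1 week (background 2.91%), none at 3 weeks (8.9%), 1 at 5 weeks (9.69%), none at 7 weeks (14.3%), 2 at 9 weeks (17.6%) and none at 11 weeks (18.8%). The median difference over the 62 subunits was -0.26 at 7, -0.24 at 9 and -0.32 at 11 weeks; the median over all genes tested lay within 0.02 of 0 at these ages.

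Averaged over the 6 ages, 45 of 62 subunits were lower in Npc1-/- mice, against 26.6% of all genes, and 2 were higher, against 26%. All 34 complex I subunits had a negative averaged difference, and 32 passed the test. In complex II 3 of 4 were lower, in complex III 6 of 8, and in complex IV 4 of 16, with 2 higher. How the arrays are scaled bears on these counts. Quantile normalization, which forces all arrays onto one distribution, left 28 lower and 5 higher of the 68 tested members, against 50 lower and 2 higher in the deposited scaling; of all genes it called 33.1% lower and 24.2% higher. At 11 weeks it left 26 lower and 2 higher, against 44 lower, with 21.9% and 19.6% of all genes; at 7 weeks it left 24 lower, against 37, with 14% of all genes lower. Complex I kept its direction there, with 16 of 34 lower at 11 weeks and a median of -0.19, and complex III kept 4 of 8. Complex II kept 1 of 4 with a median of -0.03, and complex IV had 1 lower and 2 higher with a median of 0.00. Over all probe sets of an array, the 90th percentile was 8.92 to 8.96 in 11-week Npc1+/+ mice and 8.83 to 8.89 in Npc1-/- mice. Quantile normalization was applied to the genes, with 1 probe set each, and not to all probe sets.

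**Figure D2:**
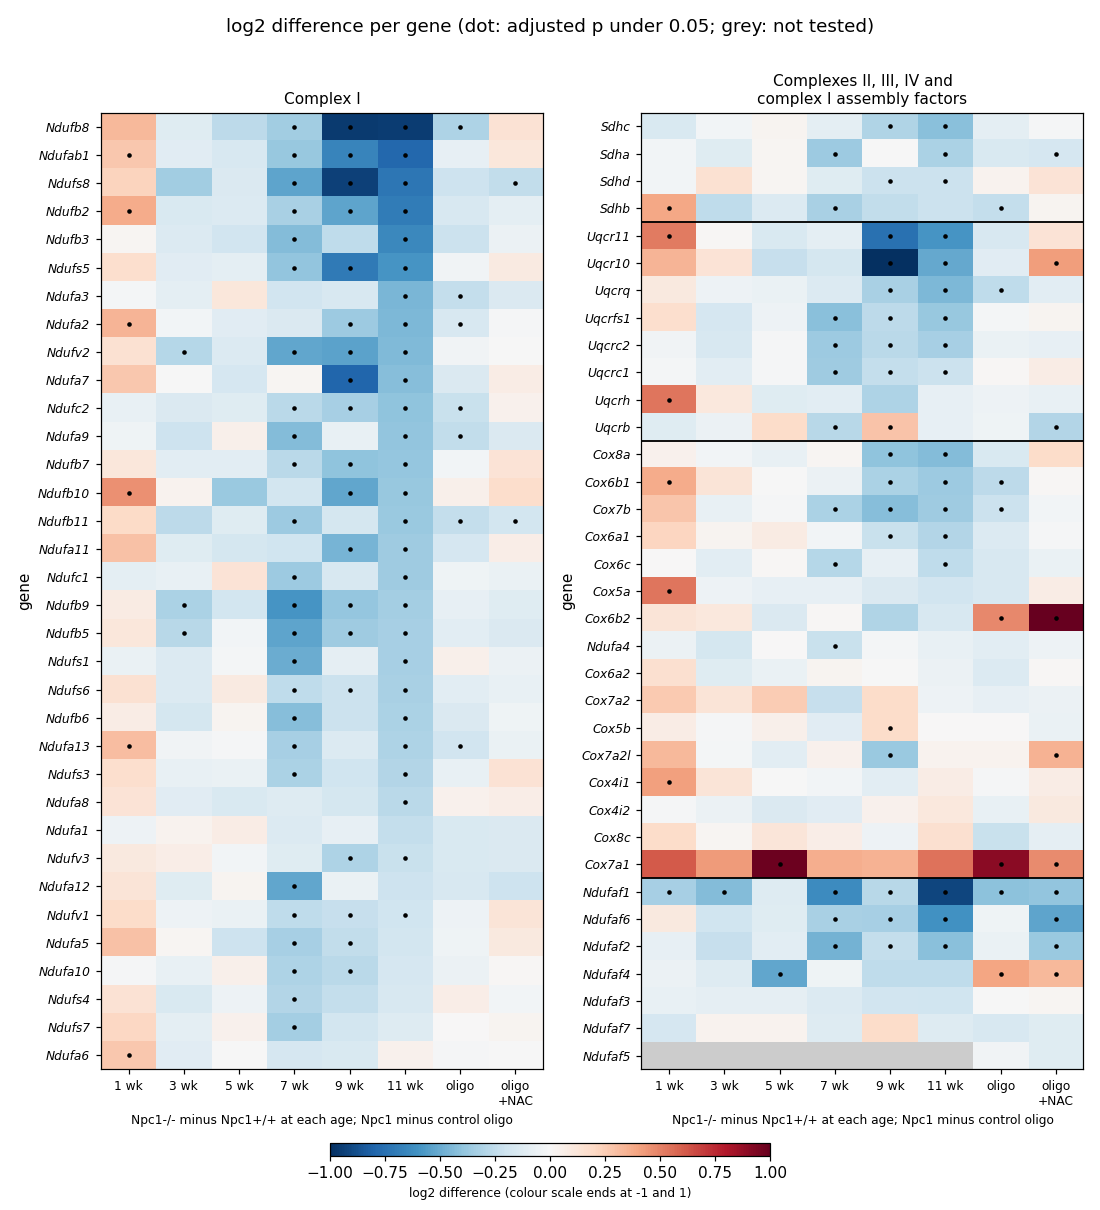
log2 difference (colour) of each tested member (rows, by complex) for Npc1-/- minus Npc1+/+ at each age and for Npc1 minus control oligo without and with NAC (columns); a dot marks an adjusted p under 0.05 and grey a gene not tested. Complex I rows turn blue from 7 weeks on, with 27 of 34 dotted at 11 weeks, while Cox7a1 and Cox6b2 stand out red in the oligo columns.

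Complex I, which has the most members, had the most lower genes by count: 25 of 34 at 7 weeks, 19 at 9 weeks and 27 at 11 weeks, with none higher. By share of members it did not lead at every age. At 9 weeks complex III, described below, had the larger share. The core subunits coded in the nucleus include those that carry the flavin and iron-sulphur clusters that conduct electrons. Of the nuclear core subunits, 6 were measured here. Of these 6, all were lower at 7 weeks, 3 at 9 weeks and 5 at 11 weeks, with a median difference of -0.31 at 11 weeks. Of the 28 accessory subunits, which surround and stabilize the core, 19, 16 and 22 were lower at the same ages, and the 11-week median was -0.36. The lower counts were thus spread over core and accessory subunits alike.

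Ndufb8, an accessory subunit of the membrane arm whose protein is often used as a readout of assembled complex I (Entrez gene 67264, probe set 10468016), had the largest 11-week difference. Its levels at 11 weeks were 8.55, 8.90, 9.14 and 8.57 in the Npc1+/+ mice and 7.84, 7.79, 7.75 and 7.99 in the Npc1-/- mice. No mutant mouse reached the control range. The difference was -0.95 ± 0.11 (SE; limma adjusted p = 1.8e-09), a 1.93-fold lower level. At 9 weeks it was -0.96 ± 0.11 (adjusted p = 2.5e-09), and at 7 weeks -0.35 ± 0.11 (adjusted p = 0.015).

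Ndufs8, a core subunit that holds a pair of iron-sulphur clusters on the path to ubiquinone (Entrez gene 225887, probe set 10464551), had the largest averaged difference of complex I, -0.41 ± 0.05 (adjusted p = 5.9e-09). At 9 weeks the Npc1+/+ mice stood at 9.36, 9.16, 9.46 and 9.24 and the Npc1-/- mice at 8.23, 8.41, 8.30 and 8.54. Every mutant lay below every control, and the difference was -0.93 ± 0.13 (adjusted p = 8.9e-08). It was -0.53 at 7 weeks and -0.72 at 11 weeks. Ndufv2, the core subunit with the cluster next to the flavin, was lower at 3, 7, 9 and 11 weeks, by -0.29, -0.52, -0.54 and -0.44.

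Ndufab1 is the mitochondrial acyl carrier protein, used both as a complex I subunit and in mitochondrial fatty acid and lipoic acid synthesis. Its 11-week levels were 9.58, 9.70, 9.73 and 9.70 in Npc1+/+ and 8.90, 8.74, 8.81 and 9.11 in Npc1-/- mice. Controls varied little and all mutants were lower; the difference of -0.78 ± 0.08 had the smallest adjusted p of any member at that age, 2.1e-11. Ndufb2 (-0.70 at 11 weeks), Ndufb9 (-0.59 at 7 weeks) and Ndufb5 (-0.53 at 7 weeks), all of the membrane arm, and Ndufs5, of the intermembrane-space side, whose promoter is printed above, were also lower. Ndufs5 at 11 weeks was 9.14, 9.10, 9.68 and 9.13 in Npc1+/+ and 8.77, 8.70, 8.58 and 8.63 in Npc1-/- mice, so no mouse crossed between groups; the difference was -0.59 ± 0.11 (adjusted p = 3.2e-05). Ndufa7 reached -0.79 at 9 weeks. Ndufa6, chosen here after its values were seen, had the only positive 11-week difference of complex I, 0.04, which did not pass the test.

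**Figure D3:**
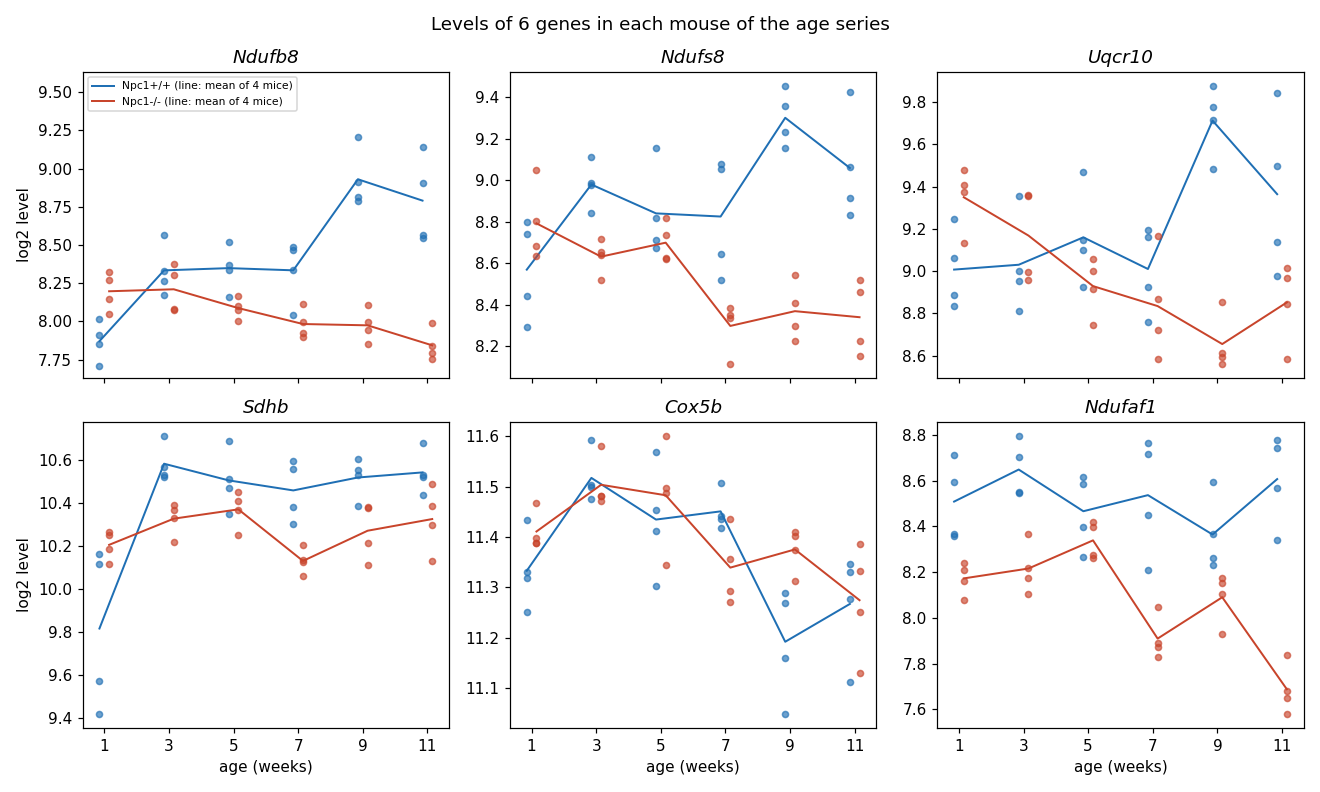
log2 level (y axis) of 6 genes in each mouse against age in weeks (x axis), Npc1+/+ in blue and Npc1-/- in red, lines joining the means of 4 mice. Ndufb8 climbs in Npc1+/+ to levels between 8.55 and 9.14 at 11 weeks and not in Npc1-/- mice, Ndufaf1 runs lower in the mutants at 11 weeks, and Cox5b hardly separates.

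Complex II has 4 subunits: the flavoprotein Sdha and the iron-sulphur protein Sdhb form the enzyme's head, and Sdhc and Sdhd anchor it in the membrane. Sdha at 11 weeks was 11.64, 11.38, 11.24 and 11.55 in Npc1+/+ and 11.23, 11.02, 11.11 and 11.18 in Npc1-/- mice, with the groups touching but not crossing. The difference was -0.32 ± 0.07 (adjusted p = 0.00047). Sdhc stood at 9.93, 9.95, 9.76 and 9.92 against 9.68, 9.35, 9.35 and 9.50, again without overlap, a difference of -0.42 ± 0.09 (adjusted p = 0.00018). Sdhd was -0.22 ± 0.08 (adjusted p = 0.031). Leaving out any 1 of 5 of these mice (Npc1-/- 2 or 3, Npc1+/+ 1, 2 or 3) ended that call, with differences from -0.16 to -0.22, and quantile normalization turned it to 0.04. Sdhb differed by -0.22 (adjusted p = 0.10) at 11 weeks, but by -0.33 ± 0.11 (adjusted p = 0.018) at 7 weeks, when Sdha was also lower, by -0.36. At 9 weeks Sdha did not differ, at -0.003 (limma adjusted p = 0.98). For Sdha at 11 weeks the difference under quantile normalization was -0.10 and did not pass.

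Complex III, the cytochrome bc1 complex, was lower for 4 of 8 subunits at 7 weeks, 6 at 9 weeks and 6 at 11 weeks; the other two at 11 weeks were Uqcrb and Uqcrh. Uqcr10, a small subunit beside cytochrome c1, had the largest genotype difference of any member. Its 9-week levels were 9.48, 9.71, 9.88 and 9.78 in Npc1+/+ and 8.56, 8.85, 8.61 and 8.59 in Npc1-/- mice. The lowest control lay well above the highest mutant, at -1.06 ± 0.15 (adjusted p = 1.6e-07), a 2.08-fold lower level. At 11 weeks the control levels spread from 8.98 to 9.84 and met those of the mutants, 8.59 to 9.01, and the difference was -0.51 ± 0.15 (adjusted p = 0.0044).

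Uqcr11, another small subunit, whose promoter is shown above (Entrez gene 66594), stood at 9.54, 9.26, 9.55 and 9.24 in Npc1+/+ and 8.53, 8.72, 8.62 and 8.72 in Npc1-/- mice at 9 weeks. All controls exceeded all mutants, and the difference was -0.75 ± 0.13 (adjusted p = 9.8e-06). Its other probe set gave -0.83 at 11 weeks where the one used gave -0.59. The core protein Uqcrc2 averaged -0.19 ± 0.03 over the ages (adjusted p = 1.1e-06), and Uqcrfs1, the Rieske iron-sulphur protein, was -0.38 ± 0.09 at 11 weeks (adjusted p = 0.00087). Uqcrb, which binds near the ubiquinone site, was 1 of the 2 subunits higher at 9 weeks, by 0.28 ± 0.10 (adjusted p = 0.020), although lower by 0.27 at 7 weeks; its 3 probe sets do not share a sign in averaged difference, which runs from -0.05 to 0.01.

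Complex IV, cytochrome c oxidase, had 3 of 16 genes lower at 7 weeks, and 5 at both 9 and 11 weeks. The 5 at 11 weeks were Cox8a (-0.44), Cox6b1 (-0.37), Cox7b (-0.36), Cox6a1 (-0.29) and Cox6c (-0.26), small subunits around the catalytic core. None of these 5 is among the isoforms of other tissues with low levels, which the count of 16 takes in. Cox7b and Cox8a moved to -0.09 and -0.21 under quantile normalization and Cox6a1 to -0.04, and none of these passed. Without Npc1+/+ mouse 3 or Npc1-/- mouse 3 Cox7b did not pass either, at -0.21 and -0.30. Cox4i1, the regulatory subunit of most tissues, differed by 0.07 at 11 weeks, and Cox5a by -0.19, and neither passed. Cox5b, the zinc-binding subunit, differed by 0.01 at 11 weeks and was the other subunit higher at 9 weeks, by 0.18 ± 0.07 (adjusted p = 0.031). Median centring of the arrays, which left no subunit higher at 9 weeks, ended that call and the one of Uqcrb. Cox5b and Cox6c were named here after their values were seen. Ndufa4, now counted with complex IV, was lower by 0.22 at 7 weeks, and its averaged difference of -0.09 turned to 0.02 under quantile normalization.

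Cox7a1 is the heart and skeletal muscle isoform of a subunit for which liver mainly uses Cox7a2 (Entrez gene 12865, probe set 10551836), and it moved against the other subunits. At 5 weeks its levels were 6.07, 5.87, 5.80 and 6.01 in Npc1+/+ and 7.27, 6.81, 6.81 and 6.80 in Npc1-/- mice. Every mutant was higher, by 0.98 ± 0.23 (adjusted p = 0.0023), a 1.97-fold higher level. At 11 weeks the levels were 5.87, 5.92, 6.02 and 5.98 against 6.67, 6.43, 6.44 and 6.43, again without overlap; the difference of 0.54 had an adjusted p of 0.06. That p includes the spread from the 1-week Npc1-/- mouse with muscle transcripts, where Cox7a1 stood at 7.99 while the other 3 mice of its group were at 5.75 to 5.92. Without that mouse the differences at 3, 5, 7, 9 and 11 weeks were 0.42, 0.98, 0.36, 0.34 and 0.54 with adjusted p from 1.2e-08 to 0.017, and the 1-week difference fell from 0.61 to 0.07. The averaged difference was 0.54 ± 0.09 (adjusted p = 4.4e-06) with the mouse and 0.45 ± 0.05 (adjusted p = 4.7e-11) without it. Cox7a2 itself averaged 0.09 ± 0.04 higher (adjusted p = 0.032), a call that median centring, leaving out the 1-week Npc1+/+ mice 3 and 4 together, or leaving out single mice ended, at 0.05 to 0.08.

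The other muscle isoforms were high in that same mouse. Cox8b stood at 8.64 in 1-week Npc1-/- mouse 3 and at 3.92 to 4.34 in the other 3; Cox6a2 stood at 7.02 against 5.91 to 6.21. The summed log2 level of 12 skeletal muscle markers moved with them: their mean was 9.02 in that mouse, and no other mouse of the study exceeded 6.48. In the other Npc1-/- groups, where Cox7a1 was higher, the mean of the muscle list was between 5.18 and 5.48. None of the 7 muscle markers tested passed at 11 weeks in either direction. Cox7a1 is also abundant in brown fat, whose defining markers Ucp1 and Cidea stood between 4.06 and 4.89 on every array, below the filter. The other genes of the brown fat list, Adipoq, Plin1 and Fabp4, are not described here. Whether muscle or brown fat tissue had a part in the Cox7a1 differences was not tested.

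**Figure D4:**
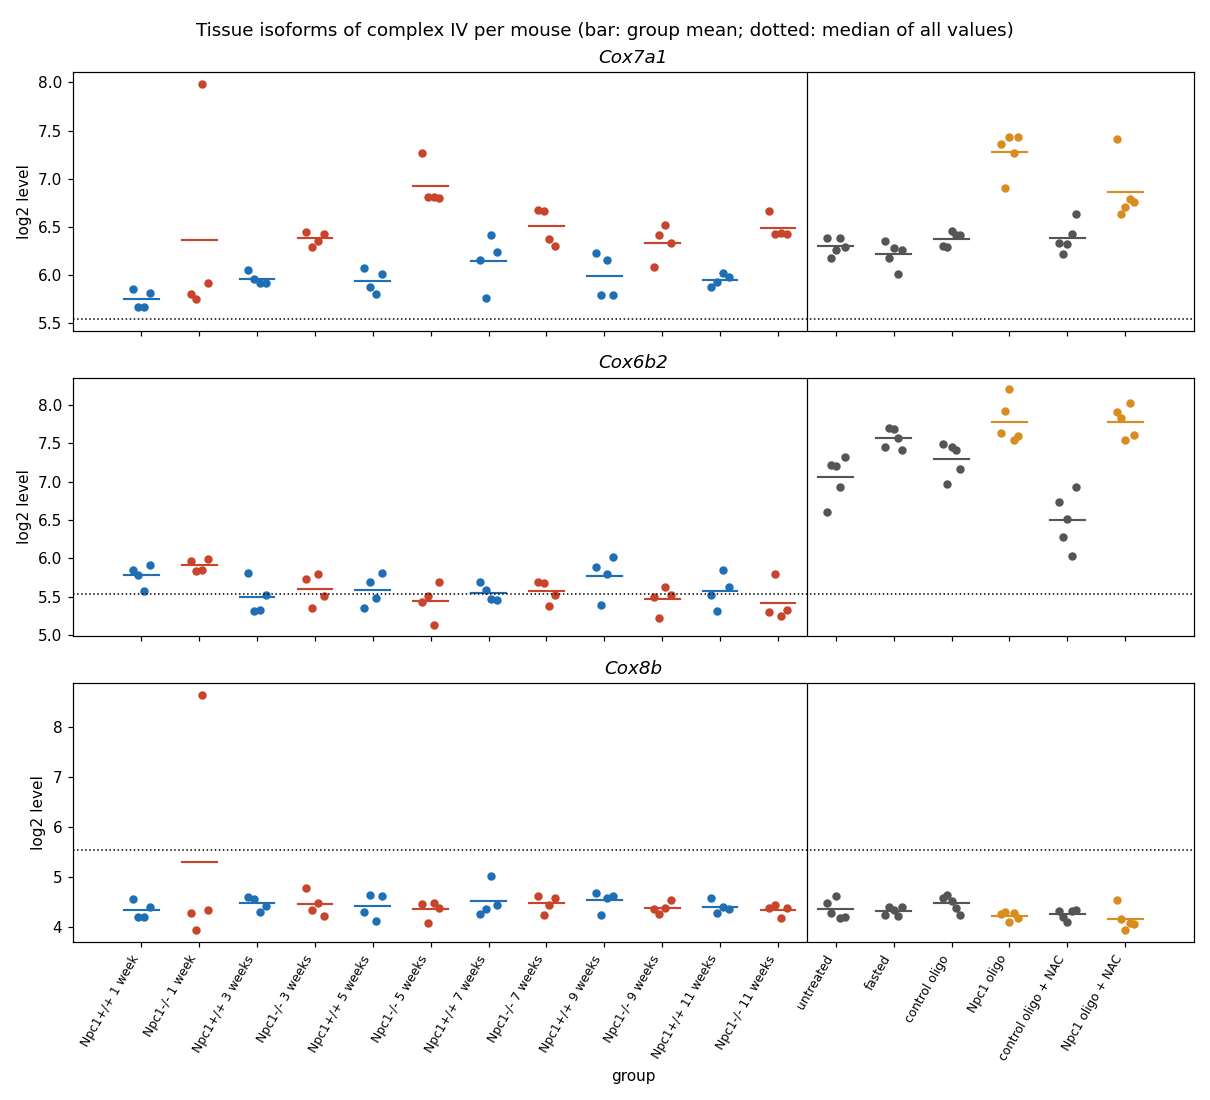
log2 level (y axis) of Cox7a1, Cox6b2 and Cox8b in each mouse of the 18 groups (x axis), with a bar at the group mean and a dotted line at 5.54, the median of all values; blue is Npc1+/+, red Npc1-/-, orange the Npc1 oligo groups and grey the other 12-week groups. Cox7a1 is higher in Npc1-/- mice at 5 weeks and in Npc1 oligo mice, Cox6b2 varies among the 12-week groups, and Cox8b is high in 1 mouse, at 8.64.

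Among the complex I assembly factors, Ndufaf1 was lower at every age but 5 weeks. This factor, also called CIA30, helps build the membrane arm (Entrez gene 69702, probe set 10486284). Levels at 11 weeks were 8.78, 8.57, 8.34 and 8.74 in Npc1+/+ and 7.84, 7.65, 7.58 and 7.68 in Npc1-/- mice. The groups were far apart, and the difference was -0.92 ± 0.10 (adjusted p = 8.5e-10), a 1.89-fold lower level. It was -0.34 at 1, -0.43 at 3, -0.63 at 7 and -0.27 at 9 weeks, and -0.45 ± 0.04 averaged (adjusted p = 2.7e-12). The 3-week call did not pass without the Npc1+/+ mice with pancreatic transcripts, at -0.33, nor the 1-week call without Npc1+/+ mice 3 and 4. Ndufaf2 and Ndufaf6 were lower at 11 weeks, by -0.42 and -0.60. Averaged over ages, 5 of 6 tested factors were lower: these 3, Ndufaf4 (-0.21) and Ndufaf3 (-0.13). Ndufaf7, a methyltransferase that modifies a core subunit, was the one that did not pass.

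In the youngest mice the picture was different. At 1 week 12 subunits were higher in Npc1-/- mice: 6 of complex I, Sdhb, Uqcrh and Uqcr11, and Cox5a, Cox4i1 and Cox6b1. Uqcr11 stood at 8.72, 8.70, 7.97 and 7.96 in Npc1+/+ and 8.87, 8.88, 8.69 and 8.99 in Npc1-/- mice, and Sdhb at 10.12, 10.16, 9.42 and 9.57 against 10.25, 10.19, 10.12 and 10.26. Npc1+/+ mice 3 and 4, those numbered apart, were the low ones in both. Without them Cox5a was the 1 member past the threshold, at 0.37 (adjusted p = 0.022), compared with 0.53 ± 0.08 (adjusted p = 2.0e-05) over all 4 mice. Uqcrh moved from 0.54 to 0.07, Uqcr11 from 0.52 to 0.15 and Ndufb10 from 0.46 to 0.10. Leaving out mouse 3 alone left 1 of the 13 members past the threshold, leaving out mouse 4 left 2, and leaving out Npc1-/- mouse 4 left 7. The 3-week calls, Ndufb9, Ndufv2 and Ndufb5 beside Ndufaf1, likewise numbered none without the Npc1+/+ mice with pancreatic transcripts, and 2 without Npc1+/+ mouse 1 or 4 or Npc1-/- mouse 1, 2 or 4. Quantile normalization gave 1 higher and 2 lower in place of 4 lower, with 9.65% and 6.92% of all genes. The 5-week calls were Cox7a1 and Ndufaf4 (-0.52 ± 0.16, adjusted p = 0.027), and the count was 1 without Npc1-/- mouse 2 or 3. Ndufaf4 did not pass without Npc1-/- mouse 2, 3 or 4 or Npc1+/+ mouse 2 or 4, at -0.41 to -0.51, nor in the fit of only the 2 groups. Quantile normalization gave 1 higher and 2 lower at that age, with 8.74% and 4.8% of all genes.

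Subunit levels also rose after birth in normal liver. From 1 to 3 weeks 37 of 62 subunits were higher in Npc1+/+ mice, against 15.4% of all genes, and none was lower, against 21.5%. From 1 to 11 weeks 41 were higher, against 22.3%, and none lower, against 22.5%. They comprised 25 of 34 in complex I, 2 of 4 in complex II, 5 of 8 in complex III and 9 of 16 in complex IV. Uqcr11 rose by 0.93 ± 0.13 (adjusted p = 7.2e-08), Ndufb8 by 0.92 ± 0.11 (adjusted p = 3.6e-09), Ndufb2 by 0.88 and Sdhb by 0.73, and Cox5a, a matrix-facing subunit, by 0.64. The assembly factor Ndufaf4 rose by 0.85, and Ndufaf7 fell by 0.33. Without the 1-week Npc1+/+ mice 3 and 4 the rise was 0.56 for Uqcr11 (adjusted p = 0.00042), 0.40 for Sdhb (adjusted p = 0.0011), 0.60 for Ndufb2, 0.48 for Cox5a, 0.86 for Ndufb8 and 0.92 for Ndufaf4, all past the threshold, and Ndufaf7, at -0.21, did not pass; nor did it without mouse 3 alone or without the 11-week mouse 3. In the same fit the members past the threshold numbered 25 in place of 44 at 11 weeks and 15 in place of 41 at 3 weeks. Cox4i1, Cox6a1, Cox6b1, Cox7b and Ndufa4 were among those that then did not pass. The share of all genes past the threshold in that fit is not given here. Whether these counts exceed it therefore cannot be read from them. Quantile normalization gave 27 members higher and 6 lower from 1 to 11 weeks, against 43 and 1 in the deposited scaling. Of all genes it called 23.3% higher and 24% lower. An F test over the 6 ages called 46 subunits in Npc1+/+ mice, against 53.3% of all genes.

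The same ages gave another count in Npc1-/- liver. From 1 to 11 weeks 3 subunits were higher in Npc1-/- mice, against 20.9% of all genes, and 16 were lower, against 19.6%. The 3 were Cox7a2l, Ndufa6 and Ndufa4, the last by 0.19. Ndufab1 fell by 0.69, Uqcr10 by 0.50, Cox6b2 by 0.49, Ndufs8 by 0.45 and Ndufb8 by 0.35. The assembly factor Ndufaf4 rose by 0.66. At 11 weeks Cox6b2 was below the filter, at 5.25 to 5.33, in all Npc1-/- mice but mouse 2, at 5.80. The size of its fall is therefore uncertain. Under quantile normalization 34 of the 68 members were lower and 1 higher, against 19 and 4 in the deposited scaling. Of all genes that setting called 22.2% lower and 21.6% higher. The difference between the genotypes in their course over the ages, tested as a genotype by age F test, passed for 46 of 62 subunits, against 27.7% of all genes: 28 in complex I, 3 in complex II, 7 in complex III and 8 in complex IV. Without the 1-week Npc1+/+ mice 3 and 4 it passed for 36 members in place of 48, and the share of all genes in that fit is not given here.

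Other mitochondrial genes were counted from lists chosen by function. At 11 weeks, when 20.5% of all genes were lower and 18.8% higher, 9 of 16 ATP synthase genes were lower and 1 higher, with a median of -0.26, and 49 of 77 mitochondrial ribosomal protein genes were lower and none higher, with a median of -0.29. Assembly factors of complexes II to IV were lower for 15 of 24, and citrate cycle enzymes for 6 of 15 with 2 higher. Under quantile normalization, with 21.9% of all genes lower and 19.6% higher, the ribosomal proteins had 43 lower and a median of -0.25 and the assembly factors 14 lower, while ATP synthase had 4 lower and 2 higher with a median of -0.01 and the citrate cycle 3 lower and 4 higher with a median of 0.02. The cytochrome c1 gene, Cyc1, the nuclear-encoded heme protein of complex III that the symbol rule does not reach, was lower by 0.43 ± 0.08 (adjusted p = 4.4e-05), a call that quantile normalization ended. Among 15 regulators of mitochondrial gene expression, 5 were lower and 1 higher at 11 weeks: Tfam, which packages and transcribes mitochondrial DNA, by -0.40, Twnk, its helicase, by -0.49, and the coactivator Ppargc1a by 0.87 ± 0.22 (adjusted p = 0.0015). Nrf1, whose motif is capitalized above, differed by -0.10 and Gabpa, the ETS subunit of GABP, by -0.28 ± 0.09 (adjusted p = 0.014). For the mitochondrially encoded subunits, COX2 and ND3 differed by 0.01 and -0.10, and neither passed.

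Cell type markers moved with genotype. All 9 macrophage markers were higher at 11 weeks in Npc1-/- mice, and the mean of the list was 10.3 to 10.5 per mutant mouse against 7.08 to 7.26 per control; its summed level was 93.0 to 94.2 against 63.7 to 65.4. The summed level was 91.4 to 93.9 against 63.4 to 65.1 at 9 weeks, 77.3 to 82.8 against 62.4 to 64.0 at 5 weeks, and 68.3 to 71.2 against 67.0 to 67.8 at 1 week. Of 9 hepatocyte markers 4 were lower at 11 weeks and none higher, with a median of -0.23. Endothelial markers were lower for 5 of 7 with 1 higher, and erythroid markers for 2 of 3. The part of these shifts in the subunit differences was not tested.

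In adult mice treated for 4 weeks, Npc1 oligo was set against control oligo. Of the subunits 11 of 62 were lower, against 7.88% of all genes, and 2 higher, against 14.7%; the median was -0.10, with all genes at 0.02. The lower ones were 7 accessory subunits of complex I, Sdhb, Uqcrq, Cox6b1 and Cox7b, and no core subunit of complex I. The complex I mean was 9.43 ± 0.06 (SD, n = 5) in control oligo and 9.32 ± 0.05 in Npc1 oligo mice, which overlapped. Ndufb8 was 8.70, 8.46, 8.78, 8.71 and 8.54 in control oligo mice and 8.28, 8.54, 8.39, 8.13 and 8.29 in Npc1 oligo mice. A single treated mouse reached into the control range, and the difference was -0.31 ± 0.11 (adjusted p = 0.042). Sdhb was 10.66, 10.59, 10.77, 10.78 and 10.75 against 10.45, 10.49, 10.48, 10.47 and 10.45, without overlap, at -0.24 ± 0.06 (adjusted p = 0.0038). Cox7b, at -0.22 with an adjusted p of 0.048, did not pass when any 1 of 7 mice was left out. Macrophage markers moved here too, 8 of 9 higher, with a mean of 8.66 to 9.38 per mouse against 7.59 to 7.88; their part in these differences was not tested.

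Cox7a1 was higher with the Npc1 oligo as well. Its levels were 6.30, 6.29, 6.46, 6.41 and 6.42 in control oligo mice and 7.35, 6.91, 7.44, 7.27 and 7.44 in Npc1 oligo mice. The groups were well apart, by 0.91 ± 0.11 (adjusted p = 4.6e-07), a 1.87-fold higher level. The muscle marker list had a mean of 5.25 to 5.47 in the control and 5.24 to 5.38 in the treated mice, and its part in the Cox7a1 difference was not tested. Ndufaf1 was lower, at 8.50, 8.52, 8.41, 8.35 and 8.35 against 8.92, 8.73, 8.89, 8.75 and 8.87, by -0.41 ± 0.07 (adjusted p = 0.00013), also without overlap. The assembly factor Ndufaf4 was higher by 0.40 ± 0.09 (adjusted p = 0.0023).

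**Figure D5:**
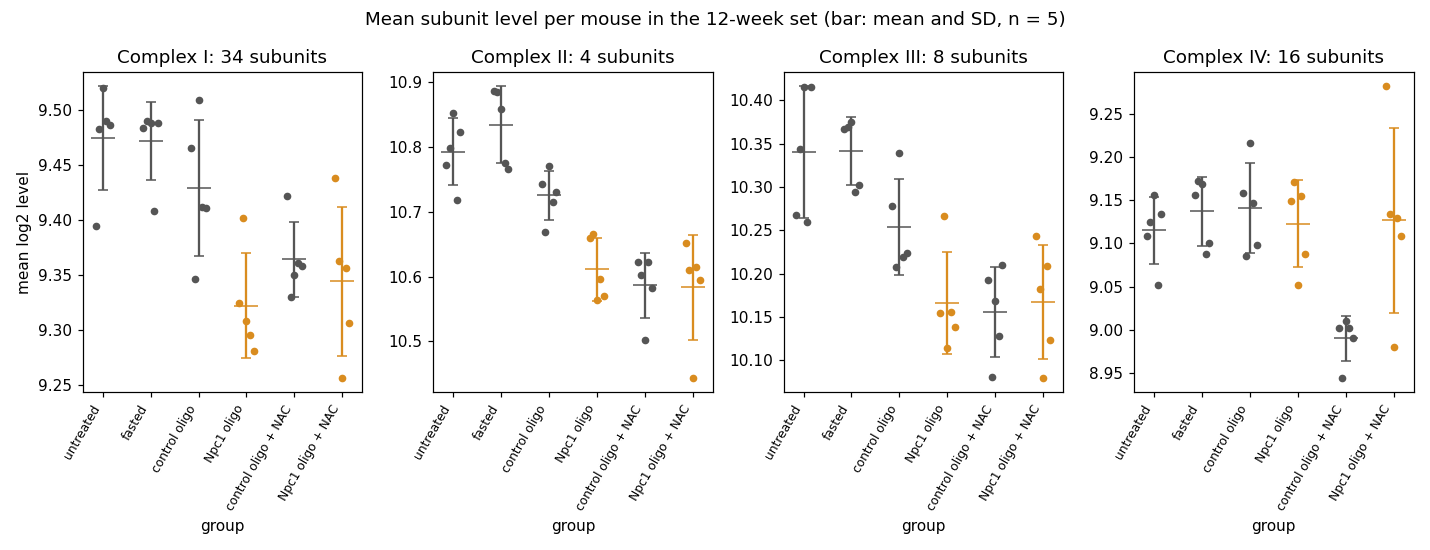
Mean log2 level of the tested subunits of each complex (y axis, 1 panel a complex) in each mouse of the 6 groups of 12-week-old mice (x axis), with group mean and SD (n = 5). The complex IV mean is lowest with control oligo and NAC, at 8.99, and the complex I mean is highest in untreated and fasted mice, both at 9.47.

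Among mice that also received NAC, 4 subunits were higher with the Npc1 than with the control oligo, against 11% of all genes, and 4 lower, against 14.7%. Cox6b2, the testis isoform of Cox6b, was higher by 1.29 ± 0.15 (adjusted p = 1.3e-07), Cox7a1 by 0.47 ± 0.11 (adjusted p = 0.0015), Uqcr10 by 0.42 and Cox7a2l, a supercomplex factor, by 0.35; Uqcrb, Ndufs8, Ndufb11 and Sdha were lower. Over all members the split was 5 higher and 7 lower, 13 and 5 under quantile normalization, and 6 and 5 with median centring. Of all genes quantile normalization called 15.3% higher and 14.5% lower, and median centring 12.5% and 12.9%. Ndufaf6 (-0.52), Ndufaf1 (-0.39) and Ndufaf2 (-0.37) were lower and Ndufaf4 higher (0.32). Uqcr10 did not pass without control oligo and NAC mouse 2, at 0.32. Cox6b2 was 7.49, 6.97, 7.45, 7.41 and 7.17 with the control oligo, 6.74, 6.28, 6.52, 6.03 and 6.93 with control oligo and NAC, 7.63, 7.92, 8.21, 7.55 and 7.60 with the Npc1 oligo and 7.91, 7.83, 7.54, 8.03 and 7.61 with Npc1 oligo and NAC. The low group was the control oligo with NAC; without NAC the oligos differed by 0.48 ± 0.15 (adjusted p = 0.019), a call that leaving out control mouse 2 (0.40) or treated mouse 3 (0.37) ended.

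With the control oligo, NAC mice had 3 lower subunits (background 2.41%) and none higher (6.09%): Cox6b2 by -0.80 ± 0.15 (adjusted p = 0.001), Sdhb by -0.23 and Cox5a by -0.21. Cox5a did not pass in 6 of 10 fits without 1 mouse or under 3 of 8 other settings. The fit of only the 2 groups kept 1 of the 3, and quantile normalization called 9, all lower. Of all genes quantile normalization called 4.74% lower and 4.9% higher there. With the Npc1 oligo, NAC mice had 2 lower subunits (background 4.27%), Cox7a1 (-0.42 ± 0.11, adjusted p = 0.016) and Uqcrb (-0.27), and 1 higher (2.88%), Ndufa2 (0.27); Ndufaf6 was also lower, by -0.50. The Uqcrb call, just inside the threshold, was lost in 9 of 10 fits without 1 mouse and under 4 of 8 other settings, and that of Cox7a1 without Npc1 oligo mouse 5 or Npc1 oligo and NAC mouse 2. Without Npc1 oligo mouse 5 these 4 numbered 2, and quantile normalization gave 3 higher and 3 lower, with 4.92% and 4.98% of all genes. The comparisons of this set share groups, so their values are not independent of each other. Whether the oligo difference changed with NAC was tested as an interaction. It passed for 2 subunits in the positive direction, Cox6b2 (0.80 ± 0.21, adjusted p = 0.024) and Cox7a2l (0.32, adjusted p = 0.043), against 1.15% of all genes, for none in the negative direction, against 3.68%, and for Ndufaf6 (-0.48). With quantile normalization 10 members passed in the positive direction and 1 in the negative, and with median centring 1 in each. All genes passed at 2.87% and 2.97% with quantile normalization, and at 1.09% and 3.95% with median centring. Cox7a2l did not pass when any 1 of 15 mice was left out. Without control oligo and NAC mouse 2 or mouse 4 the members past the threshold numbered 1 in place of 3, without Npc1 oligo and NAC mouse 3 they numbered 6, and without control oligo mouse 5, Npc1 oligo mouse 2 or control oligo and NAC mouse 3 they numbered 5.

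An overnight fast called no subunit in limma, where 0.21% of all genes were higher and 0.319% lower; 6 of 62 had an unadjusted p under 0.05, and a trended, robust prior called none either. Cox6b2 was 1 of these, higher by 0.51, and it passed in the fit of only the 2 groups. The complex I mean was 9.47 ± 0.05 untreated and 9.47 ± 0.04 fasted. The control oligo against untreated mice gave 7 lower subunits (background 21.3%) and none higher (5.05%), led by Ndufs5 (-0.28) and Sdhc (-0.27); Ndufb7 was lower by 0.24, and so was Ndufaf4, by 0.25 (adjusted p = 0.047). Ndufaf4 did not pass in 7 of 10 fits without 1 mouse or under 4 of 8 other settings, and Ndufs5 did not without untreated mouse 4 or control oligo mouse 2. Quantile normalization gave 4 members higher and 4 lower in place of 8 lower, with 8.87% and 12.6% of all genes. Without control oligo mouse 2 the 8 members past the threshold numbered 3, and without untreated mouse 3 or 4 they numbered 4.

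Lifelong loss and adult knockdown were compared directly as the 11-week genotype difference minus the oligo difference. It was negative for 19 of 62 subunits, against 16% of all genes, and positive for none, against 11.7%. The 19 comprised 13 in complex I, 2 in complex II, 3 in complex III and 1, Cox6b2, in complex IV. For Cox6b2 the gap of -0.64 took in an oligo difference of 0.48. Its 11-week Npc1-/- levels were below the filter, at 5.25 to 5.33, in all mice but mouse 2, at 5.80. The Cox6b2 gap therefore cannot be read as a larger fall with lifelong loss. Ndufab1 had the largest gap (-0.70 ± 0.11, adjusted p = 1.9e-07), with Ndufb8 (-0.64) and Ndufs8 (-0.51) among the others; of the assembly factors Ndufaf4 (-0.65), Ndufaf6 (-0.56), Ndufaf1 (-0.51) and Ndufaf2 (-0.36) passed. For Ndufaf4 the 11-week genotype difference was -0.25 (limma adjusted p = 0.24) and the oligo difference 0.40. For Cox7a1 the gap was -0.36 ± 0.27 (adjusted p = 0.34). Quantile normalization left 11 members in place of 23, and leaving out the 11-week Npc1-/- mouse 3 left 15. Of all genes quantile normalization called 13.1% positive and 13.4% negative here. The arms differ in strain source, age and duration of loss, which cannot be told apart here.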

How the data were processed

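Total RNA of whole liver from 78 mice was hybridised as biotinylated cRNA to Affymetrix arrays. The deposited values are log2 expression per probe set; the submitters' processing notes list RMA and Partek 6.5, and how the arrays were scaled to one another is not given in the sources used here. Probe sets (35556) were named through the platform table: 21789 had 1 symbol, 1621 several and 12146 none. Genes above 5.54 on at least 4 arrays of a set were tested with limma 3.58.1 in R 4.3.3 (lmFit over all groups of a set, eBayes), with Benjamini-Hochberg adjustment over all genes tested: 12638 genes for the age series, 11900 for 12-week mice and 12748 for both sets fitted together. The code was tested on simulated data. Same-numbered mice of compared groups correlated from -0.24 to 0.29, so the numbers do not pair them.

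The members and the gene lists were chosen with earlier results of these data known. Named genes are the Sdh genes, the tissue isoforms, the Ndufaf genes, 2 members a complex with the largest averaged genotype difference and 2 with the largest 11 against 1 week difference in Npc1+/+, and the 4 largest called differences of each contrast; others are said to be chosen after their values were seen, or complete a count. Alternatives were other filters, quantile normalization, median centring, means of probe sets, a trend and robust prior, only the compared groups, a replicate block, and leaving out mice. Leaving the muscle-carrying mouse out of every age-series contrast was chosen after seeing the data. Promoter matches came from RefSeq.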

Additional observations from a re-analysis of the deposited data

Results flagged for a closer look

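Dixon's test over 360 groups of 4 or 5 mice, for the 4 complex means and 16 complex IV isoform genes and relatives, marked 27 single mice; chance marks about 1 in 20 groups. The 1-week Npc1-/- mouse 3 was marked for Cox8b (8.64, others 3.92 to 4.34) and Cox7a1 (7.99, others 5.75 to 5.92). Cox7a1 was also marked in mouse 1 of the 5-week (7.27) and 11-week (6.67) Npc1-/- groups and of Npc1 oligo with NAC (7.41).

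Among complex means, complex I stood at 9.51 in 11-week Npc1+/+ mouse 3 and 9.41 in fasted mouse 4. Complex II stood at 10.6 in 5-week Npc1-/- mouse 3, 10.4 in 1-week Npc1+/+ mouse 2 and 10.4 in Npc1 oligo with NAC mouse 3. Complex III stood at 10.3 in Npc1 oligo mouse 2, and complex IV at 8.92 in 9-week Npc1-/- mouse 4.

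Of the common isoforms, Cox6a1 was 10.9 in Npc1 oligo with NAC mouse 1 and Cox7a2 9.21 in mouse 3 of that group. In 7-week Npc1+/+ mouse 1, Cox6b1 was 9.35, Cox7b 10.2 and Cox8c 5.78. Cox7a2l was 8.85 in 11-week Npc1-/- mouse 3 and 8.52 in 7-week Npc1+/+ mouse 2. Cox8a was 9.81 in control oligo with NAC mouse 2. Ndufa4 was 11.6 in 9-week Npc1+/+ mouse 3 and 11.7 in untreated mouse 4.

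Of the isoforms of other tissues, Cox4i2 was 5.57 in 3-week Npc1+/+ mouse 3, Cox6a2 6.26 in 5-week Npc1-/- mouse 3 and 6.35 in 5-week Npc1+/+ mouse 2, Cox6b2 5.80 in 11-week Npc1-/- mouse 2, and Cox8c 5.18 in 5-week Npc1+/+ mouse 1.

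A tested difference between effects was found in 3 comparisons. The genotype by age test passed for 48 of 68 members, the oligo by NAC interaction for 3 of 69, and the 11-week genotype difference minus the oligo difference for 23 of 69.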

How the results depend on the processing

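Counts below are members past the threshold. For fits that left out mice, the shares of all genes are not given here. Leaving out single mice gave 1 to 18 at 1 week (13 with all mice), 2 to 5 at 3 weeks (4), 1 to 3 at 5 weeks (2), 2 to 5 for NAC with the Npc1 oligo (4), 1 to 6 for oligo by NAC (3), 3 to 10 for control oligo against untreated (8) and 15 to 25 for the 11-week genotype minus oligo difference (23). Quantile normalization gave 23 at 1 week, 24 at 7 weeks (37), 28 at 11 weeks (44), 33 averaged over ages (52), 35 for 11 against 1 week in Npc1-/- (23), 9 for NAC with the control oligo (3), 11 for oligo by NAC and 11 for the 11-week genotype minus oligo difference; the cause was not tested. Median centring gave 8 at 1 week. Of all genes at 1 week quantile normalization called 4.28% higher and 3.47% lower, and median centring 2.39% and 2.86%. Fits of only the compared groups, with fewer mice to estimate the spread, gave 1 at 1 week, 7 at 3 weeks, 1 at 5 weeks, 1 for NAC with either oligo, 1 for oligo by NAC, 1 for fasting and 4 for control oligo against untreated. Without the 1-week Npc1+/+ mice 3 and 4 they were 1 at 1 week, 15 for 3 against 1 week (41), 25 for 11 against 1 week (44) and 31 for age in Npc1+/+ (49); without the 3-week Npc1+/+ mice 1 and 2 they were 0 at 3 weeks. Under quantile normalization Ndufa4 averaged over ages became 0.0158 and Sdhd at 11 weeks 0.0353. The fit with a replicate block gave 44 at 11 weeks, 12 at 1 week and 13 for the Npc1 oligo (15), and ended the calls of Ndufb5 at 3 weeks, Cox7b with the Npc1 oligo, Ndufaf4 with the control oligo and Cox7a2l for oligo by NAC. In all, 428 of 471 alternatives for counts stayed within 1.5 times, and for 102 named differences 2380 of 2554 kept direction and side of the threshold. Array values give no depth, and a probe set near 5.54 may not be well above background.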
